A study of Parasteatoda tepidariorum with 16 samples.

Results

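A group of 81 genes with no product description, or one that calls the product uncharacterized, out of 27990 gene models counted in embryos of the spider *Parasteatoda tepidariorum*, had almost no reads in germ-disc cells at stage 3 and was detected in cells of early stage 5. A gene entered the group if its product description was empty or started with "uncharacterized", if it had at most 3 reads in each of the 8 stage-3 libraries, and if it reached 5 CPM (the count scaled to a total of 1000000 reads on genes) in both libraries of central cells or in both libraries of peripheral cells at early stage 5. The values of those 12 libraries therefore chose the genes, and what they show is given as a description without a test. The 4 stage-4 libraries were not used in the choice.

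An egg of this spider first forms an even layer of cells, and at one pole these gather into a germ disc, an epithelium that gives rise to the body. At the centre of the disc the cumulus, a small cluster of signalling cells, arises and later migrates towards the rim, while the rim sends Hedgehog signals and endoderm and mesoderm cells enter from both the centre and the periphery. Early embryos first live on RNA laid down by the mother and then switch on their own genes in steps. A gene model often lacks a product name when its protein resembles no well studied protein.

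The 16 RNA-seq libraries were made from 10 to 100 cells each, drawn by glass capillary from untreated embryos, and formed 7 groups. At stage 3 (about 20 h after egg laying) there were 2 libraries from the central region (c cells), 3 from the intermediate region (i cells) and 3 from the peripheral region (p cells) of the forming disc. Stage 4 (28 to 29 h) and early stage 5 (31 to 32 h) each gave 2 libraries for c cells and 2 for p cells. The stage-3 c and p cells came from the eggs of 1 mother, the i cells from another, and each later stage from a further mother, so that stage and mother cannot be told apart and p-values measure only the spread between libraries of 1 mother's eggs. Central markers went with the labels, while not all peripheral markers did so before early stage 5. *g4238* (*Ets4*), a central marker, had from 510 to 2119 CPM in c cells of stage 4, where p cells had at most 0.458 CPM, and 352 to 359 CPM against at most 1.09 CPM at early stage 5. Among peripheral markers, *g4322* (*hedgehog*) had 29.6 and 372 CPM in the stage-4 p libraries and under 1 CPM in the c libraries. The endodermal gene *g26874* (*fuchi*) was high in c cells but differed between p libraries, with 30.6 and 478 CPM at stage 4 and 53.8 and 255 CPM at early stage 5.

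The depth was 5948619 to 10500376 reads on genes per stage-3 library, 7100948 to 10045889 per stage-4 library and 4566853 to 5896305 per library of early stage 5, and a gene with no read could thus have had 0.286 to 0.657 CPM (3 reads). The limit holds for counting error alone, because the cDNA was amplified by PCR and molecules carried no identifiers. The stage-4 library p1 stood apart, with 4511 genes at 1 CPM or more where the other stage-4 libraries had 5973 to 8414, and no read of *g13984* (alpha-catenin), which every other library but stage-3 i2 contained. Some of the results that rest on it are given with and without it. In pools of cells, fewer cells of a type and less RNA per cell cannot be told apart.

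Of the 81 genes, 29 had an empty description and 52 were described as uncharacterized, the latter naming 53 distinct NCBI loci. A RefSeq gene table of another assembly (CAS_Ptep_4.0) held 44 of these loci, and all 44 were listed as protein coding. The label did not hold for *g25261* (scaffold 93 of Ptep_1.0, from 711131 to 738922, plus strand), which is described in the file as uncharacterized but is the gene that the study calls *Pt-GATA4*. GATA factors are DNA-binding proteins, and the *Drosophila* counterpart *serpent* acts in the endoderm of the fly. A product name or likeness stood after the word uncharacterized for 4 other genes. *g6987* carried the name of a worm gene for a mitochondrial protein, *g14890* that of a *Dictyostelium* protein, *g15908* that of a human open reading frame (C3orf67 homolog), and *g26799* was likened to a protein kinase with an aarF domain. No sequence of a member was at hand, so none is shown. The exon length implied by counts and RPKM (reads per kilobase of gene model and 1000000 reads) had a median of 1520 bases over the 81 genes, with the middle of the range from 1039 to 2575 bases. The same limits applied to genes with a product description gave 246 genes, whose median was 2026 bases, and the median over all 7496 genes at 5 CPM in both c or both p libraries of early stage 5 was 2403 bases.

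The genes were scattered over the assembly. They lay on 79 scaffolds, and only scaffold 350 (*g1864* and *g1868*) and scaffold 173 (*g26799* and *g26806*) held 2 of them, in neither case as direct neighbours. A neighbouring gene model on the same strand lay within 5000 bases of 22 members. For 9 of these members the neighbour was itself at 5 CPM at early stage 5, and all 9 neighbours had more than 3 reads in a stage-3 library. The closest were *g26566*, 55 bases from *g26565* (fibroblast growth factor receptor 4), *g10015*, 86 bases from *g10016* (Mpv17-like), and *g19645*, 221 bases from *g19644* (diacylglycerol kinase epsilon). Whether such pairs are parts of 1 transcription unit was not tested. *g7384* and *g19319* overlapped a model on the other strand, so their reads are less certain. Another gene model carried the same NCBI locus as 9 of the members. For *g1864* and *g2391* that other model was already read at stage 3, with up to 66 reads of *g1863* and 116 of *g2390*, both in stage-3 library c1. These 2 members met the stage-3 limit as gene models, while their locus had reads there.

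At stage 3, 72 of the 81 genes had no read in any of the 8 libraries. The other 9 had 18 reads in all, at most 4 per gene summed over the libraries. The genes nearest to each limit are named here, but many other members also lay near the 5 CPM limit. A minimum of 10 CPM would have left 36 members. *g7912* was nearest inside the stage-3 limit, with 3 reads in 1 library, and the nearest genes outside had 5 reads, *g12623* among 3 genes at that value. *g8781* was nearest inside the early stage-5 limit, with 5.26 CPM in the lower of its c libraries, and *g16746* was nearest outside, with 4.92 CPM.

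Among the 13965 genes with an empty or uncharacterized description, 11319 met the stage-3 limit, and 81 of these (0.716%) also met that of early stage 5. Of the 14025 described genes, 5654 met the first limit and 246 of these (4.35%) the second. The 81 were 6.13% of the 1321 uncharacterized genes at 5 CPM at early stage 5, and the 246 were 3.98% of 6175 described genes.

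**Figure D1:**
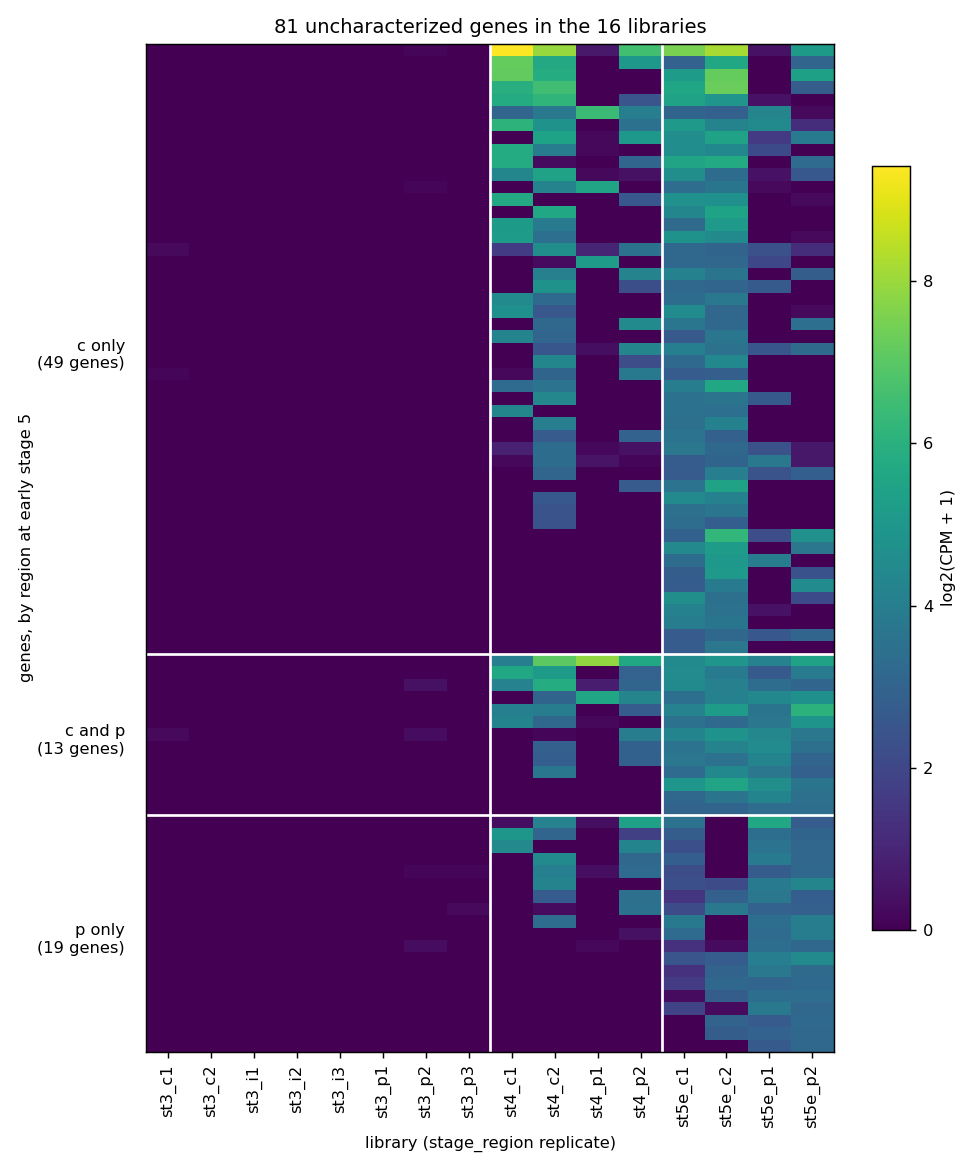
Level of the 81 genes (rows) in the 16 libraries (columns), as log2(CPM + 1) in colour, with genes sorted by the region in which they reached 5 CPM at early stage 5 and, within a region, by their stage-4 level. The stage-3 columns are dark by choice of the genes, stage-4 library p1 holds 5 of the genes at 5 CPM or more, and 49 genes were at 5 CPM in both c libraries only.

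The map of levels by library shows when and where the genes were read. At stage 4, 18 members (22.2%) were at 5 CPM or more in both c libraries and not in both p libraries, where the share over all 7496 genes at 5 CPM at early stage 5 was 20%. Both p libraries and not both c libraries reached this level for 1 member (1.23%, against 8.08% of all), and all 4 libraries for 2 members (2.47%, against 43%). A further 34 members reached 5 CPM in at least 1 library but in neither pair, and 3 were detected above 3 reads yet under 5 CPM throughout. The remaining 23 members (28.4%) had at most 3 reads in every stage-4 library, against 3.66% of all 7496 genes, most of which had been read at stage 3 already. The 246 described genes chosen by the same limits had 22.4% in both c libraries only, 3.66% in both p libraries only, 0.813% in all 4 libraries and 22.8% at 3 reads or fewer in each. No test was made of the difference between these lists.

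How many genes were read at stage 4 varied from library to library. The number of members at 5 CPM or more was 25 in c1, 45 in c2, 5 in p1 and 27 in p2. Among the 50 members at 5 CPM in at least 1 c library, 27 (54.0%) had 3 reads or fewer in the other c library, and of the 29 in at least 1 p library, 23 (79.3%) had 3 or fewer in the other. Over all genes these shares were 35.7% and 42.5%. For the described genes chosen by the same limits they were 55.7% and 84.4%, so such gaps were not particular to the members. The same share at early stage 5 was fixed in part by the choice of the genes and is not compared. Without p1, 19 members would be at 5 CPM in p cells only and 8 in both regions at stage 4, and without c1 the number in c cells only would be 42.

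**Figure D2:**
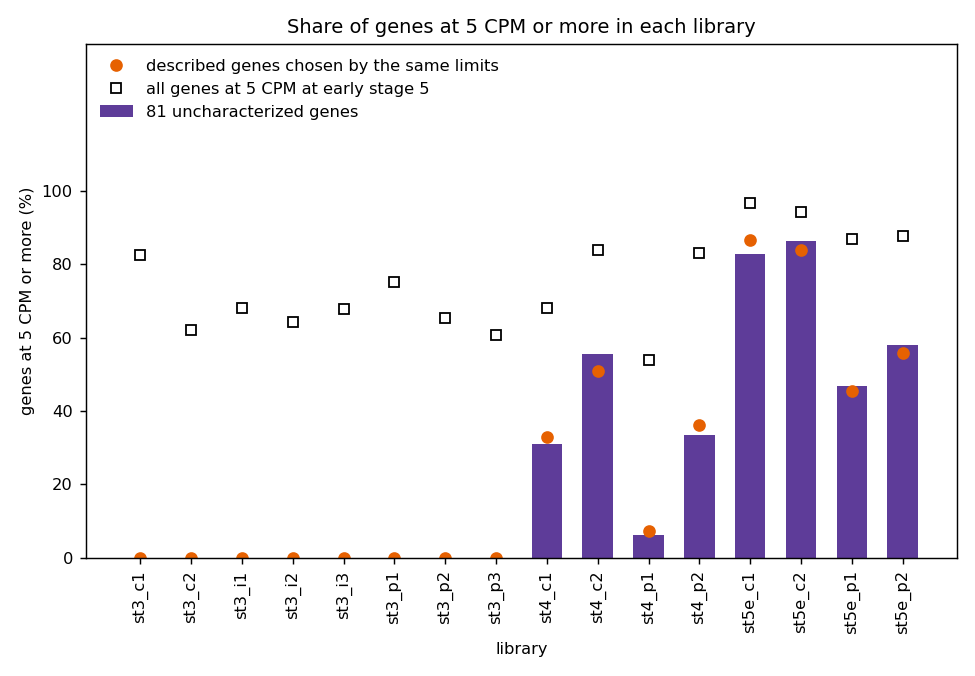
Share of genes at 5 CPM or more (percent) in each library, for the 81 uncharacterized genes (bars), the 246 described genes chosen by the same limits (filled circles) and all 7496 genes at 5 CPM in a region of early stage 5 (open squares). In stage-4 library p1 the share was 6.17% of the 81 genes, 7.32% of the described genes and 53.8% of all genes, the lowest of the 8 later libraries for each set.

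At early stage 5, where the libraries had chosen the genes, 49 members were at 5 CPM in both c libraries only, 19 in both p libraries only and 13 in all 4. The described genes under the same limits gave 61.4%, 21.1% and 17.5%, close to the 60.5%, 23.5% and 16.05% of the members. Over all 7496 genes the shares were 19.3%, 7.52% and 73.2%. In both p libraries, 22 of the 49 had 3 reads or fewer, and 1 of the 19, *g11237*, had so few in both c libraries. The c libraries did not overlap with the p libraries for 55 of the genes, 40 higher in c cells (25.1% over all 7496 genes) and 15 higher in p cells (17.6%). At stage 4, 20 members were higher in both c libraries than in either p library (16% of all) and 2 were lower (15.6% of all), while the ranges of 59 overlapped. The c libraries were the higher ones at both stages for 13 members (6.55% of all 7496 genes) and the p libraries for 1 (3.66% of all), counts that rest in part on the libraries that chose the genes.

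The median ratio of c to p cells over the 81 genes, on a log2 scale with 1 CPM added to each mean, was 0.20 at stage 4 and 1.21 at early stage 5. For the described genes it was 0.48 and 1.30, and over all 7496 genes 0 and 0.05. Leaving out stage-4 library c2 gave a median of 0 and leaving out p2 gave 2.22, so that single libraries moved the stage-4 value.

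**Figure D3:**
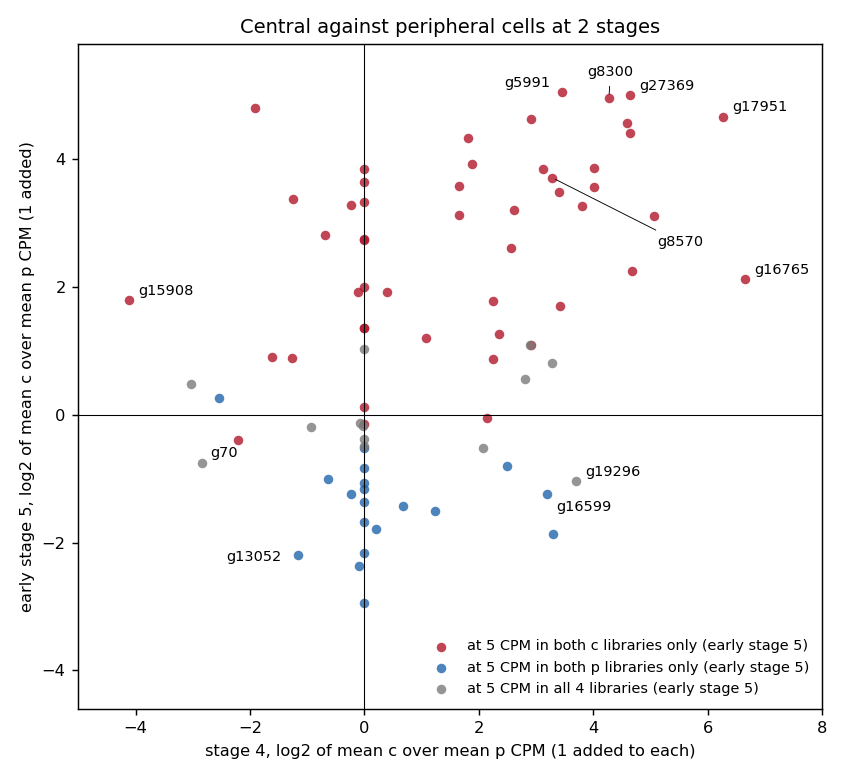
Log2 ratio of mean CPM in c cells to mean CPM in p cells, with 1 CPM added to each mean, at stage 4 (horizontal) and early stage 5 (vertical), for the 81 genes (points) coloured by the region in which they reached 5 CPM at early stage 5. Genes with no read at stage 4 lie on the vertical line at 0, and the median of the points is 0.20 along the horizontal and 1.21 along the vertical axis.

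Per length of gene model, the members had a lower median level at early stage 5 than all 7496 genes. The higher of the 2 region means had a median of 9.51 RPKM over the 81 genes, against 6.89 RPKM for the described genes under the same limits and 16.6 RPKM for all 7496 genes. In CPM, which takes no account of length, the medians were 13.4, 14.3 and 38.1, so the members were not above the described genes. The 3 highest members were *g17951* with 216.8 RPKM, *g8570* with 88.5 RPKM and *g16765* with 62.8 RPKM, all in c cells. They were followed by *g8300* with 56.8 RPKM and *g5991* with 53.6 RPKM in c cells and by *g22490* with 49.1 RPKM in p cells. *g22701*, *g21436* and *g21019* came next, each with its higher mean between 40.0 and 46.6 RPKM, and *g1485* had 35.4 RPKM in p cells.

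The stage-4 libraries, which did not choose the genes, allowed a test of c against p cells with edgeR (quasi-likelihood, Benjamini-Hochberg adjustment) over the 10074 genes that reached 1 CPM in any of the 4 libraries. Of the 81 members, 58 were among the genes tested and 1 of them, *g8570*, had an adjusted p under 0.05, where 0.486% of all genes tested were called. It was higher in c cells, where 0.437% of all genes tested were called in this direction. No member was called higher in p cells (0.0496% of all genes tested), and by the likelihood ratio test and DESeq2's Wald test none was called in this direction either. An unadjusted p under 0.05 was reached by 5 members, all higher in c cells, against 2.57% of all genes tested in this direction. The likelihood ratio test called 2 members (*g16765* and *g17951*) and DESeq2 called 7 (these 2 with *g1864*, *g2391*, *g26566*, *g27239* and *g27369*), all higher in c cells and in neither case *g8570*. In this direction the likelihood ratio test called 0.268% of all genes tested, and DESeq2 called 2.48% of the 7339 genes to which it gave an adjusted p. A member could pass the filter through its high group alone, so the direction of the 58 is not read as a result. Of the 246 described genes, 187 were tested and 0 were called by the edgeR quasi-likelihood test (13 had an unadjusted p under 0.05), while the likelihood ratio test called 1 and DESeq2 20.

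*g8570* (LOC107456435, scaffold 922, from 505411 to 527305, plus strand) had 686 and 251 CPM in c cells of stage 4, where p cells had 0.563 and 94.0 CPM. Both c libraries lay above both p libraries, with means of 469 ± 307 and 47.3 ± 66.1 CPM (SD, n = 2), a 9.91-fold difference. Its log2 fold change was 3.14 (SE 0.71, adjusted p = 0.00493, edgeR quasi-likelihood test). The call held under 8 of 14 alternatives, with adjusted p from 0.000252 to 0.974. Among the 8 was a prior count of 2, which alters the fold change alone and could not lose the call. It was lost without c1 (log2 fold change 2.34), without p1 (2.33) and without p2 (9.38), with the likelihood ratio test (3.34, adjusted p = 0.156), with DESeq2's Wald test (3.46, adjusted p = 0.677) and with the replicate number as a block (3.15, adjusted p = 0.192). Early stage-5 c cells had 182 and 288 CPM and p cells 0.365 and 33.8 CPM, so that both c libraries were again above both p libraries. At both stages library p2 held far more of it than p1, as it held more *fuchi*, while the central marker *Ets4* was at or below 1.09 CPM in all 4 of these p libraries. At stage 4, p2 also held more *hedgehog* (372 against 29.6 CPM) and alpha-catenin (96.7 CPM against no read) than p1. At early stage 5, *hedgehog* was instead higher in p1 (373 against 185 CPM). The part of *fuchi*-expressing cells in the difference in *g8570* was not tested. The gene gave 40.9% of all reads of members in stage-4 library c1 and 18.8% in c2. A second model of the same locus, *g8571*, lies 1055 bases downstream and had at most 6.99 CPM in any library. That value was in stage-4 p2, against 4.28 CPM in c2 and no read in c1 or p1, so this model was not higher in c cells.

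*g17951* (scaffold 2700, from 75739 to 89834, minus strand) has no description. It had 60.3 and 92.4 CPM in the stage-4 c libraries and no read in either p library. With p cells put at a floor of 3 reads per library, the level in c cells was at least 199-fold higher, with an adjusted p of 0.275 in the edgeR quasi-likelihood test and a range from 3.52e-06 to 0.981 over 14 alternatives, of which 3 called it. Later, at early stage 5, it had 45.8 and 153 CPM in c cells and 0 and 5.94 CPM in p cells. Its neighbour on the same strand, *g17950* (holotricin-3-like), 12034 bases away, was also read mainly in c cells at stage 4, at 446 and 297 CPM in c cells and 0 and 48.6 CPM in p cells.

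*g16765* (scaffold 2317, from 19454 to 20774, minus strand) behaved like *g17951* at stage 4. It had 143 and 55.6 CPM in c cells and no read in p cells, at least 260-fold above the floor, and an adjusted p of 0.157 by the edgeR quasi-likelihood test, with a range from 2.27e-07 to 0.974 over the alternatives. Its groups overlapped at early stage 5, with 35.0 and 147 CPM in c cells and 0 and 40.4 CPM in p cells. Again p2 was the p library with reads.

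*g8300* (scaffold 895, from 138756 to 140577, plus strand) had 54.8 and 70.5 CPM in c cells and 0 and 4.58 CPM in p cells at stage 4. Both c libraries lay above both p libraries, with a log2 fold change of 4.60 (SE 1.94, adjusted p = 0.739, edgeR quasi-likelihood test). Both c libraries were again the higher ones at early stage 5, with 42.3 and 29.3 CPM in c cells and 2 reads in all in p cells. The next model on the same strand, *g8301* (aminomethyltransferase-like), lay 2318 bases away. *g25445* (LOC107438367) had 145 and 49.9 CPM in c cells and 0 and 31.3 CPM in p cells at stage 4, and later 6.79 and 49.2 CPM in c cells and 0 and 7.46 CPM in p cells. Its c libraries were above its p libraries at stage 4 (log2 fold change 2.40, SE 1.18, adjusted p = 0.881, edgeR quasi-likelihood test), and at early stage 5 the groups overlapped.

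**Figure D4:**
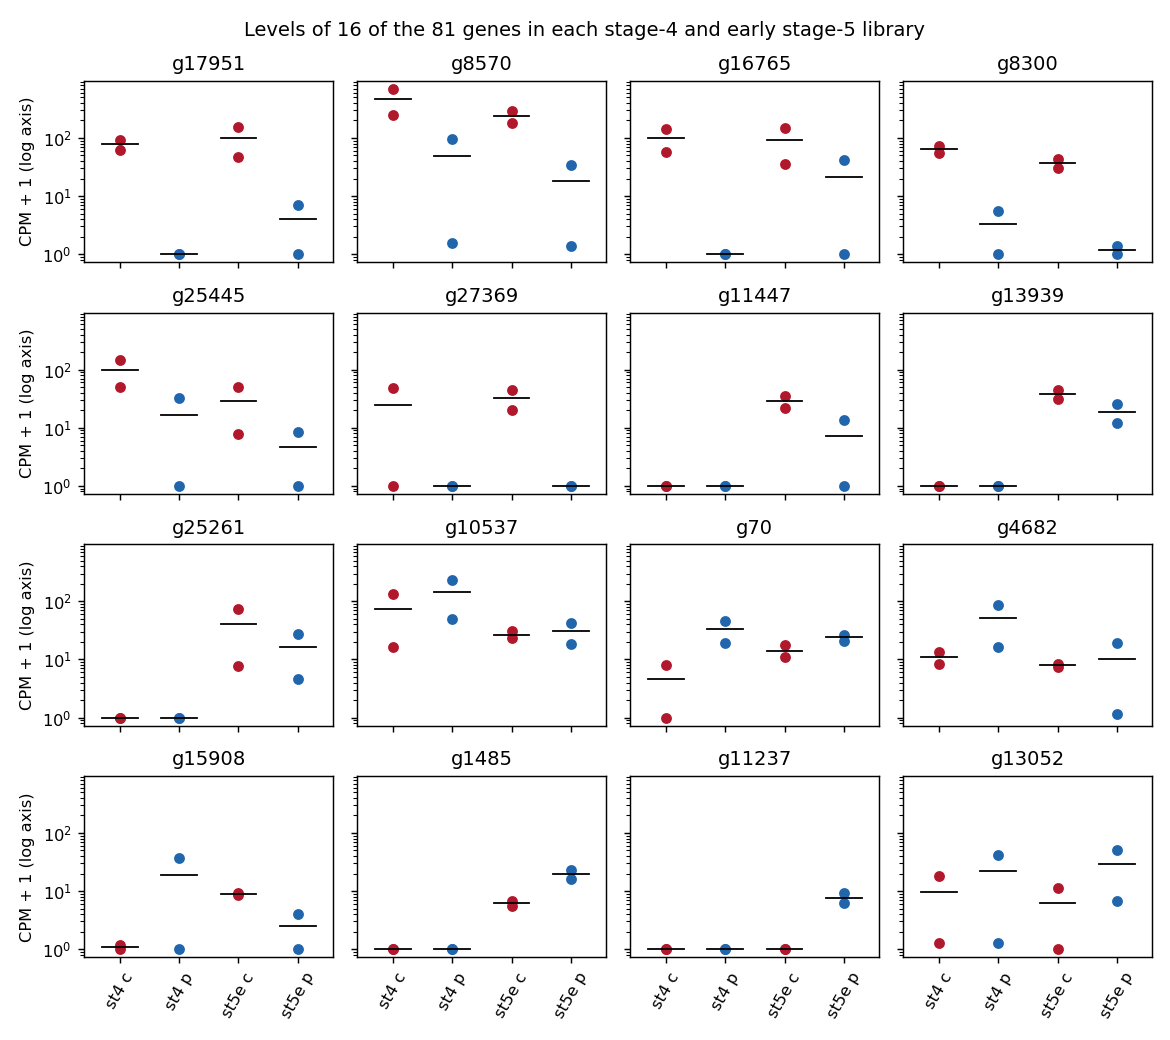
CPM + 1 (log axis) in each stage-4 and early stage-5 library for 16 of the 81 genes, with a point for each library, red for c cells and blue for p cells, and a line at the mean of the 2 libraries. In *g8570* both c libraries lie above both p libraries at each stage, *g27369* was read in 1 of the stage-4 c libraries, and *g13939*, *g11447* and *g25261* had no read at stage 4.

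The 5 genes above belonged, with *g1864*, *g2391*, *g5991*, *g6923*, *g7384*, *g8781*, *g26566* and *g27239*, to the 13 members that were at 5 CPM in both c libraries only at stage 4 and again at early stage 5. The mean of the c libraries was higher at stage 4 than at early stage 5 for 10 of the 13, which were picked for their stage-4 level, and for 24 of all 81 members. In the 13 the median in c cells was 34.7 CPM at stage 4 and 25.2 CPM at early stage 5. In p cells, 1 of the 13 had more than 3 reads in p1 and 4 in p2 at stage 4, and 2 and 6 had so at early stage 5. *g5991* (scaffold 710, from 84436 to 95975, plus strand) was among those with no read in any of the 4 p libraries. It had 8.85 and 10.9 CPM in c cells at stage 4 and 15.1 and 49.0 CPM at early stage 5, at least 25.9-fold and 60.7-fold above the floor of 3 reads per library. *g8781* was likewise without a read in p cells, with 18.3 and 7.47 CPM in c cells at stage 4.

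A different course was seen for the 23 members with at most 3 reads in each stage-4 library, which at early stage 5 were c only in 10 cases, p only in 10 and in both regions in 3. Empty descriptions were held by 12 of them. The 3 highest at early stage 5 by CPM were *g25261*, *g13939* and *g11447*, while per length of gene model *g22701* (46.6 RPKM), *g1485* (35.4 RPKM) and *g16701* (31.3 RPKM) led and *g25261* had 12.9 RPKM. *g25261* (*Pt-GATA4*) had no read in any stage-3 or stage-4 library. At early stage 5 it had 6.57 and 73.6 CPM in c cells and 3.65 and 26.5 CPM in p cells, so that replicates of a region differed more than the regions did and the groups overlapped. A second model of its locus, *g24318*, had 37 reads, all in p2 of early stage 5. The related endodermal gene *g8337* (*GATA5*), which is no member, was already read in c cells at stage 3, at 4.96 and 43.3 CPM, and at stage 4 it had 41.8 and 20.3 CPM in c cells and no read in p cells. At early stage 5 *g8337* was read in both regions, at 1.75 and 8.37 CPM in c cells and 5.65 and 4.07 CPM in p cells, which overlapped.

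*g13939* (scaffold 1762, from 101096 to 103524, minus strand) is without a description. It was read at early stage 5 in all 4 libraries, at 30.2 and 43.9 CPM in c cells and 24.2 and 11.2 CPM in p cells, the c libraries above the p libraries by 2.09 times on average. *g11447* (LOC110283279) had 20.6 and 34.7 CPM in c cells and 0 and 12.4 CPM in p cells, without overlap. *g22701*, which ranked 7 among the members by RPKM, had 5.69 and 14.2 CPM in c cells against 0 and 22.2 CPM in p cells, and its groups overlapped. The absence of reads at stage 4 has to be read with the gaps between replicates in mind: at the depth of these libraries 3 reads are 0.299 to 0.422 CPM.

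The 19 members at 5 CPM in both p libraries only had a median of 5.90 RPKM in the higher region, and the 49 central ones 11.4 RPKM. Over the 19, the medians were 9.29 CPM in p cells and 3.45 CPM in c cells. At stage 4, 10 of the 19 had at most 3 reads in every library, 8 reached 5 CPM in at least 1 library but in neither pair, and 1 was at 5 CPM in both c libraries. None of the 19 had more than 3 reads in stage-4 library p1, against 7 in p2 and 7 in c2.

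*g11237* (LOC110282355, scaffold 1283, from 112956 to 123093, plus strand) was the only member without a read in c cells at both stages. It had 5.29 and 8.14 CPM in the p libraries of early stage 5, at least 10.5-fold above the floor of 3 reads per c library, and no read at stage 4. *g1485* (scaffold 325, from 138036 to 143840, plus strand) had 15.3 and 22.0 CPM in p cells against 4.60 and 5.65 CPM in c cells, and *g22490* (scaffold 9578, from 1 to 9940, minus strand) had 13.9 and 18.7 CPM against 3.94 and 3.56 CPM. In both genes the p libraries lay above the c libraries, by 3.65 and 4.34 times on average. At stage 4, *g1485* had no read and *g22490* had reads in c2 alone, at 17.7 CPM.

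*g13906* had 9.48 and 7.80 CPM in p cells and 1.53 and 0.209 CPM in c cells at early stage 5, a 9.92-fold difference of the means without overlap. *g26806* (LOC107439471), at 13.1 and 7.63 CPM in p cells and 2.85 and 0.209 CPM in c cells, was 6.79-fold higher in p cells. *g13052* (LOC107438398) was less even, with 49.6 and 5.77 CPM in p cells and 10.5 and 0 CPM in c cells. At stage 4 it was read in c2 (17.2 CPM) and p2 (41.2 CPM) only, apart from 2 reads each in c1 and p1, so neither stage separated its groups.

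Members with a higher mean in p cells at stage 4 did not pass the test. *g70* (LOC107440907, scaffold 2, from 1683170 to 1728826, minus strand) was the only member at 5 CPM in both p libraries and not in both c libraries. It had 45.5 and 18.4 CPM in p cells and 0 and 7.17 CPM in c cells, without overlap (log2 fold change -2.96, SE 2.02, adjusted p = 0.881, edgeR quasi-likelihood test). Its p libraries were again the higher ones at early stage 5, at 19.9 and 25.8 CPM against 9.85 and 16.5 CPM. This was the member whose p libraries were above its c libraries at both stages.

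*g4682* (scaffold 582, from 382839 to 383524, minus strand) had 85.1 and 15.5 CPM in p cells and 7.47 and 12.6 CPM in c cells at stage 4, also without overlap (log2 fold change -2.28, SE 1.49, adjusted p = 0.881, edgeR quasi-likelihood test). Without p1 its log2 fold change was -0.50. Later *g4682* was at 7.23 and 6.49 CPM in c cells and at 18.4 and 0.170 CPM in p cells, so that its 2 p libraries lay on either side of the c libraries. *g10537* (LOC107450937, scaffold 1181, from 49526 to 126254, plus strand) was the most widely read member, at 15.5 and 131.7 CPM in c cells and 236 and 48.4 CPM in p cells of stage 4 and between 17.1 and 41.7 CPM in the 4 libraries of early stage 5. Its groups overlapped at both stages, and its log2 fold change of -0.90 at stage 4 turned to 0.80 without p1. *g4682* and *g10537* were the 2 members at 5 CPM in all 4 stage-4 libraries.

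In 19 members a stage-4 level of 5 CPM was reached in 1 library alone, which was c2 for 11 members, p2 for 4, c1 for 3 and p1 for 1. *g27369* (LOC107441630, scaffold 212, from 963052 to 990276, minus strand) had 47.8 CPM in c2 and no read in the other 3. It later had 19.1 and 42.9 CPM in c cells and no read in p cells, at least 58.7-fold above the floor. *g15908* (LOC107441437) was the p1 case, with 36.2 CPM there, 2 reads in c2 and none elsewhere, and it was later read in c cells, at 8.10 and 7.53 CPM, and in p1 at 3.099 CPM. *g10015* and *g21019* were read in p2 at 15.1 and 5.50 CPM. The first later reached 12.4 to 27.4 CPM in all 4 libraries, and the second had 10.9 and 42.5 CPM in c cells and no read in p cells. Another model of the locus of *g21019*, *g21419*, did have reads in p cells of early stage 5, 1 in p1 and 22 in p2. In a further 15 members the level was reached in 1 c and 1 p library, with c2 in 13 and p2 in 14 of them.

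Of the 13 members at 5 CPM in all 4 libraries of early stage 5, 4 (*g5467*, *g7912*, *g19296* and *g21436*) had been at 5 CPM in both c libraries only at stage 4, and 3 had at most 3 reads in each. *g21436* (scaffold 5109, from 1 to 4253, plus strand) had 15.6 and 15.0 CPM in c cells and 0 and 5.73 CPM in p cells at stage 4 (log2 fold change 2.22, SE 2.56, adjusted p = 0.881, edgeR quasi-likelihood test). Then, at early stage 5, it had 17.1 and 36.2 CPM in c cells and 11.3 and 66.3 CPM in p cells, which overlapped. *g7912* (LOC107455659) had 17.0 and 55.9 CPM in c cells and 0.704 and 7.33 CPM in p cells at stage 4, and 21.7 and 16.1 against 9.30 and 7.46 CPM at early stage 5, the c libraries being the higher ones at both.

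Genes with an empty description and genes described as uncharacterized were also set side by side. At early stage 5, 15 of the 29 with an empty description were at 5 CPM in both c libraries only, 6 in both p libraries only and 8 in all 4, and of the 52 others 34, 13 and 5. Their median levels were 10.2 and 8.74 RPKM and their median lengths 1383 and 1598 bases. Of the 10 highest members by RPKM, 8 had an empty description. In CPM, which takes no account of length, the medians at early stage 5 were 10.2 and 12.1 in c cells and 9.29 and 5.72 in p cells. The difference between these sets was not tested, since the members were chosen on these libraries.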

How the data were processed

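Poly(A) RNA of isolated cells was converted to cDNA with a stranded kit, amplified by PCR and sequenced by the authors. After trimming, they used BLAT to align the reads to the Ptep_1.0 assembly and, once the alignments had been filtered, htseq-count to assign them to AUGUSTUS aug3.1 gene models. The sources used here do not give the same version of htseq-count: the submitters' processing notes give HTSeq 0.5.4p5. The first deposited file holds these raw counts, and the other deposited file gives the authors' RPKM, used here for levels per length and to derive a length for each gene model from counts of at least 10. In all, 5 lines of the count file named no gene. They were filled in the 4 libraries of early stage 5 alone, where they took 8.18% to 8.85% of the counts, and were left out. All 16 columns were matched to a sample by name, and 0 were left unmatched. Gene names and positions are those of the count file. The RefSeq table was of another assembly and was used for names alone.

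The 81 members, the lists and the tests were chosen with earlier results of these data known. CPM is the count over the library's sum on genes. At stage 4, c and p cells (2 libraries each) were compared with edgeR 4.0.16 in R 4.3.3, by TMM normalization and the quasi-likelihood test (glmQLFit, glmQLFTest, legacy set to FALSE), with p-values adjusted over all 10074 genes tested and a threshold of 0.05. The SE is the log2 fold change over the square root of F. The test was tried on simulated counts first. Log2 ratios of means had 1 CPM added to each mean. Folds against a region with no read were computed against 3 reads per library.

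Genes named were, among the members, the 10 highest by RPKM at early stage 5, up to 5 per direction with the lowest stage-4 p, up to 5 per direction with the largest ratio of c to p cells at early stage 5, the 3 highest at stage 4, the 3 highest at early stage 5 among those with at most 3 reads in each stage-4 library, and the genes next to the limits. They came to 26. Others were named after their values were seen. Alternatives were the likelihood ratio test, DESeq2 1.42.0, DESeq2's size factors, library sizes alone, no filter, at least 10 counts in at least 2 libraries, the replicate number as a block, all 16 libraries in 1 fit, a prior count of 2, other CPM minimums and amounts added, TMM library sizes, each library left out and, chosen after seeing the data, the quasi-likelihood test in its older form (legacy set to TRUE).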

Additional observations from a re-analysis of the deposited data

Results flagged for a closer look

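For 2 members the order of the regions was opposite at stage 4 and early stage 5, with no overlap of libraries at either stage. *g16599* (LOC107442463) had 30.9 and 7.47 CPM in c cells and 0 and 2.41 CPM in p cells at stage 4, and 5.91 and 0 CPM in c cells and 9.48 and 7.29 CPM in p cells at early stage 5. Its log2 ratio of c to p cells, with 1 CPM added to each mean, went from 3.19 to -1.25, a difference of -4.44. *g19296*, with an empty description, had 18.1 and 7.76 CPM in c cells and 0.141 and 0 CPM in p cells at stage 4, and 10.3 and 8.37 CPM against 12.2 and 28.2 CPM at early stage 5. Its log2 ratio went from 3.70 to -1.04, a difference of -4.74. The difference between the stages was not tested, since the early stage-5 libraries chose the genes, and stage and mother cannot be told apart. Of all 7496 genes at 5 CPM at early stage 5, 135 (1.80%) had this course and 159 (2.12%) the opposite one, which no member had.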

How the results depend on the processing

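With 2 libraries per region at stage 4 and early stage 5, single libraries moved many of the values. The number of members, 81, was 36 at a minimum of 10 CPM and 87 to 232 with each library left out, highest without early stage-5 c1. The genes called at stage 4, 49 over all genes tested, were 28 by the likelihood ratio test, 294 by DESeq2 (182 of them with the higher level in c cells and 112 with the lower, against 44 and 5), 76 with all 16 libraries in 1 fit and 0 to 45 with each library left out (6 without c1 and 0 without p1 or p2, with 265 and 771 genes at an unadjusted p under 0.05, where the lone library is assumed to vary like the others). Members called, 1 in the test as reported, were 2 by the likelihood ratio test, 7 by DESeq2, 3 by the quasi-likelihood test in its older form and 0 to 1 with each library left out (0 by the edgeR quasi-likelihood test without c1, p1 or p2, with 4, 4 and 8 at an unadjusted p under 0.05). The replicate block called 8 genes and 0 members, with 4 members at an unadjusted p under 0.05. Whether replicate numbers pair the libraries is not known. The differences between replicates 1 and 2 in c and p cells had a correlation of -0.0133 across genes. It cannot decide this, because many genes were read in 1 replicate of a region alone. Members at 5 CPM at stage 4 numbered 12 to 42 in both c libraries only, 0 to 19 in both p libraries only (2 at 10 CPM) and 2 to 8 in all 4 (1 at 10 CPM) with each library left out. At early stage 5 they numbered 34 to 49, 11 to 19 and 18 to 28, where a minimum of 10 CPM gave 26, 5 and 5, and 1 CPM gave 26 in all 4. The median log2 ratio was 0 to 2.22 at stage 4 with each library left out and 2.24 over the 58 members with at least 1 CPM, and at early stage 5 it was 0.89 with 5 CPM added. The log2 fold change of *g10537* ran from -3.34 to 0.80 and that of *g13052* from -6.36 to 4.87 with each library left out. Over 18 named genes and 242 combinations of gene and setting, the call and direction were kept in 227, a call was gained in 7 and lost in 6, and the direction turned in 2. Of these genes only *g8570* was called in the test as reported, so for the rest a kept call was the lack of one. All 6 losses were in *g8570*, whose call was kept under 8 of 14 alternatives. The prior count of 2 could not change a call in any gene. DESeq2 gave no adjusted p for *g5991*, *g22490*, *g21019* and *g10015*, which was counted as no call. The causes were not tested. Other alternatives left the total counts within 1.5 times, but genes called higher in p cells, 5 as reported, were 11 with library sizes alone, 8 with the older quasi-likelihood form and 12 with all 16 libraries in 1 fit.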
